A study of Danio rerio with 20 samples.

Results

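Of 32105 genes counted in cells sorted from zebrafish caudal fins, 290 were at least 4-fold higher in sp7+ than in sp7− cells both in uninjured fins (0 days post-amputation, dpa) and in regenerates at 4 dpa. Members were chosen by these sorted levels. A gene was a member when its mean CPM (counts scaled to the same total in every library) in sp7+ cells was 5 or more on both days and the difference in log2(mean CPM + 0.5) between sp7+ and sp7− cells was 2 or more on both days. Of these 290 genes, 284 have a symbol and 6 are known by identifier only. A total of 6735 genes reached 5 CPM in sp7+ cells on both days, and 110 genes met the same criterion in the opposite direction. The sorted levels are therefore given as a description, with no test.

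The sorted cells came from the Tg(sp7:EGFP) line, in which the sp7 promoter drives EGFP, at 0 and 4 dpa, with sp7+ and sp7− cells separated by fluorescence-activated cell sorting and fins of several fish pooled for each dissociation. Unsorted tissue came from fosl1a WT and fosl1a KO fish at 0, 1 and 4 dpa, the KO fish being homozygous CRISPR mutants of the gene that encodes Fra1 (allele tw1 in the study's text) and the WT fish their littermates. The labels call the 0 dpa tissue fin and the 1 and 4 dpa tissue blastema. Each of the 10 groups had 2 replicate libraries, so a p-value measures only the spread between these libraries. In the study's methods the 0 dpa fins were treated with TrypLE and Liberase and the 4 dpa regenerates with TrypLE alone, so time and enzyme cannot be told apart in the sorted cells.

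Osteoblasts build the bony fin rays by secreting collagen and mineral-binding proteins, and the zinc-finger factor Sp7 (Osterix) is required for their differentiation. After amputation, osteoblasts of the stump lower their bone genes, divide, move into the blastema and make new ray bone. The surface of the fin is a stratified epidermis whose outermost cells are sealed by claudin tight junctions, carry their own keratins and cover the fin with a lipid-rich barrier.

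Sorted libraries held 28906309 to 50312755 counts and unsorted libraries 10194983 to 31507208. The library of KO 0 dpa replicate 1 was the shallowest and stood furthest from its replicate (r = 0.941 for log2 values across genes, against 0.98 to 0.994 in the other 9 groups). The targeted gene fosl1a was at 120 and 128 CPM in WT and at 36.8 and 45.5 CPM in KO libraries at 1 dpa, whereas at 0 dpa it was at 2.89 and 3.82 CPM in WT and at 13.8 and 8.05 CPM in KO libraries. In the sorted 0 dpa libraries fosl1a was at 1114 to 1249 CPM, far above its level in uninjured unsorted fins.

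The gene sp7 itself (ENSDARG00000019516) was at 23.0 and 27.7 CPM in sp7+ cells at 0 dpa and at 94.7 and 124 CPM at 4 dpa, and at 0.204 and 0.127 and then 1.77 and 1.37 CPM in sp7− cells. Every sp7+ library lay above every sp7− library. A list of 41 osteoblast regulators and bone matrix genes, of which 35 were found, contributed 12 members. Of the 35, 15 were at least 4-fold higher and 0 at least 4-fold lower in sp7+ cells at 0 dpa, and 15 and 1 at 4 dpa. Some were lower in sp7+ cells on both days, among them sost (log2 differences of −1.53 and −2.54), msx2b (−0.59 and −0.96) and alpl (−0.82 and −0.23). The bone members were ifitm5, a small membrane protein of mineralizing osteoblasts, sp7, spp1 (osteopontin), the channel gene panx3, the hedgehog ligand ihha, the mineral-binding scpp1, the collagen X gene col10a1a, the cadherin CDH11, the phosphatase gene entpd5a, the osteocalcins bglap and bglapl, and the phosphate-regulating endopeptidase phex. The summed CPM of the list was 15226 and 38991 in sp7+ against 13795 and 12375 in sp7− cells at 0 dpa, and 158188 and 215921 against 86219 and 86084 at 4 dpa.

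The label of osteoblasts did not cover all members. Of 25 superficial epidermis genes, 7 were members: the keratin krt1-19d, the claudins cldne and cldnf, the secreted disulfide isomerase agr1, the annexin anxa1b, the transglutaminase tgm1, which crosslinks the envelope of keratinocytes, and the membrane protease tmprss4b. The keratin krt1-19d was at 4642 and 4552 CPM in sp7+ cells at 0 dpa and at 162 and 193 CPM in sp7− cells, and cldne was at 8064 and 5703 against 259 and 223 CPM. In both genes every sp7+ library lay above every sp7− library on both days, which is part of what chose them as members. Of the 25 genes on the list, 11 were at least 4-fold higher and 0 at least 4-fold lower in sp7+ cells at 0 dpa, and 7 and 1 at 4 dpa. The 2 other transglutaminase entries were lower in sp7+ cells, with log2 differences at 0 and 4 dpa of −1.04 and −2.14 (TGM1, ENSDARG00000102692) and −1.79 and −1.53 (tgm1l4). The summed level of the list at 0 dpa was 79954 and 78370 CPM in sp7+ and 81953 and 96001 CPM in sp7− cells, where the abundant keratin krt5 alone had a mean of 15078 and 57606 CPM. At 4 dpa the sums were 31299 and 28903 against 45499 and 52380 CPM.

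Markers of other cell types were few among the members. None of 12 basal epidermis genes was a member, and 10 of them were at least 4-fold lower in sp7+ cells at 0 dpa, with a summed level of 5643 and 4850 CPM against 29544 and 26082 CPM in sp7− cells. The leukocyte list summed to 13197 and 10450 CPM in sp7+ against 3073 and 3032 CPM in sp7− cells at 0 dpa, of which the antigen-presentation gene cd74a held a mean of 11794 against 2922 CPM, and 5 of its 9 genes were at least 4-fold lower in sp7+ cells. The lists of mucous and club cells, ionocytes, leukocytes, osteoclasts, endothelium, neurons and glia, fin mesenchyme and joint cells contributed 0 members, and the pigment cell list contributed 1, gch2, an enzyme of pteridine synthesis. What part cells of the outer epidermis had in the sp7+ libraries was not tested.

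**Figure D1:**
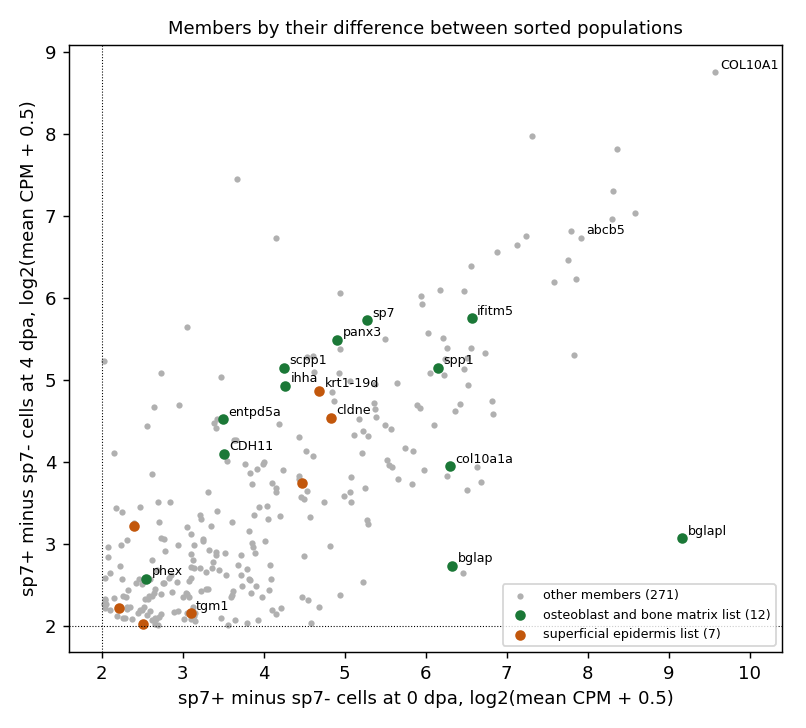
Each point is 1 of the 290 members, placed by its difference between sp7+ and sp7− cells at 0 dpa (x axis) and at 4 dpa (y axis) in log2(mean CPM + 0.5). Dotted lines mark the threshold of 2 that chose the members, green points the 12 members of the bone list and orange points the 7 members of the superficial epidermis list. Of all members, 209 have the larger difference at 0 dpa, bglapl among them, and 76 at 4 dpa.

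The members' median difference between the sorts was 3.78 at 0 dpa and 3.25 at 4 dpa on the log2 scale, and the difference was larger at 0 dpa for 209 members and at 4 dpa for 76. A total of 141 members were 8-fold or more higher on both days and 76 were 16-fold or more higher. The members together held 8.44% and 8.22% of all counts of the sp7+ libraries at 0 dpa and 9.04% and 10.3% at 4 dpa, against 0.506% to 0.631% in the 4 sp7− libraries. Just inside the threshold were ifi27.3, rhcgl1 and btr12, with smaller differences of 2.026, 2.016 and 2.016, and among those just outside were rn7sl1 and trpm1b, at 1.991 and 1.988.

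The widest separation, by the smaller of both differences, belonged to a second collagen X gene, COL10A1 (ENSDARG00000101535), which was at 2468 and 6787 CPM in sp7+ cells at 0 dpa and at 16048 and 18590 CPM at 4 dpa, against at most 50.3 CPM in any sp7− library. The next 9 were si:ch211-188p14.4, si:dkey-7c18.24, si:ch211-188p14.5, si:dkey-162h11.2, zgc:163079, si:ch211-188p14.2, si:ch211-226h7.5, the ABC transporter abcb5 and the sulfotransferase sult2st3. Most of these leading genes carry clone names and have no annotated function in the files. The levels of si:ch211-188p14.5 and si:ch211-188p14.2 were correlated at 0.995 across libraries, and whether they share reads was not tested.

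The time course within sp7+ cells split the members. A total of 53 members (18.3%) were higher in both 4 dpa than in both 0 dpa sp7+ libraries, 220 (75.9%) were lower and 17 overlapped, whereas among all 6735 genes at 5 CPM or more the shares were 45.2%, 35.2% and 19.6%. The median change from 0 to 4 dpa was 1.98 for the 53 and −1.95 for the 220 on the log2 scale. The bone list gave 10 of the 53 higher members and 2 of the 220 lower ones, the osteocalcins bglap and bglapl, and all 7 superficial epidermis members were among the 220. Since these levels are part of what chose the members, the split is a description.

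The unsorted libraries took no part in choosing the members, and 286 of the 290 had enough counts there to be tested. The 4 others, the forkhead gene foxi1, the connexin GJA3, si:ch211-165f21.6 and adissp, had mean levels of at most 0.442 CPM in every unsorted group although they were at 5.86 to 58.5 CPM in sp7+ cells. In unsorted tissue, fewer cells of a type and less RNA per cell cannot be told apart. The 0 dpa tissue is labelled fin and the later tissue blastema. Time and the tissue taken therefore cannot be told apart in comparisons with 0 dpa, where genes are said to fall or rise. Changes over time were tested in edgeR against a 2-fold threshold and genotype differences against no difference, with Benjamini-Hochberg adjustment over all 20157 genes tested and a call at an adjusted p under 0.05.

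Of 286 members, 74 (25.9%) were lower and 6 (2.1%) higher in WT fins at 1 dpa than at 0 dpa, against a background of 8.95% lower and 6.32% higher among all genes tested. The median log2 fold change was −0.90 for members and −0.06 for all genes. At 4 dpa, 57 members (19.9%) were lower than at 0 dpa and 11 (3.85%) higher, against 4.78% and 6.69% of all genes, with medians of −1.06 and −0.01. Between 1 and 4 dpa, 39 members (13.6%) rose and 16 (5.59%) fell, against 5.84% and 3.13% of all genes. The count of 68 members called between 4 and 0 dpa fell to 42 without WT 4 dpa replicate 2, and 33 of the 68 kept their call when any 1 of the 12 libraries was left out.

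In WT fins the members are described by their course in sp7+ cells, and the difference between both sets was not tested. Of the 52 tested members that were higher in sp7+ cells at 4 dpa, 27 (51.9%) fell and 0 rose between 0 and 1 dpa (median −1.84). Among all genes 8.95% fell and 6.32% rose. Between 1 and 4 dpa, 28 (53.8%) of the 52 rose and 0 fell (median 1.88), against 5.84% and 3.13% of all genes. At 4 dpa 9 (17.3%) were above and 0 below their 0 dpa level (median 0.59), against 6.69% and 4.78%. Of the 218 that were lower in sp7+ cells at 4 dpa, 39 (17.9%) fell and 6 (2.75%) rose by 1 dpa (median −0.75). At 4 dpa 55 (25.2%) of the 218 were below and 2 (0.917%) above their 0 dpa level (median −1.23). A fall at 1 dpa followed by a rise to 4 dpa was called for 34 members (11.9%, against 2.91% of all genes), 24 of them among the 52, and a level below 0 dpa at both later times for 27 (9.44%, against 2.8%), 25 of them among the 218. The unsorted libraries were not used to form these sets.

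**Figure D2:**
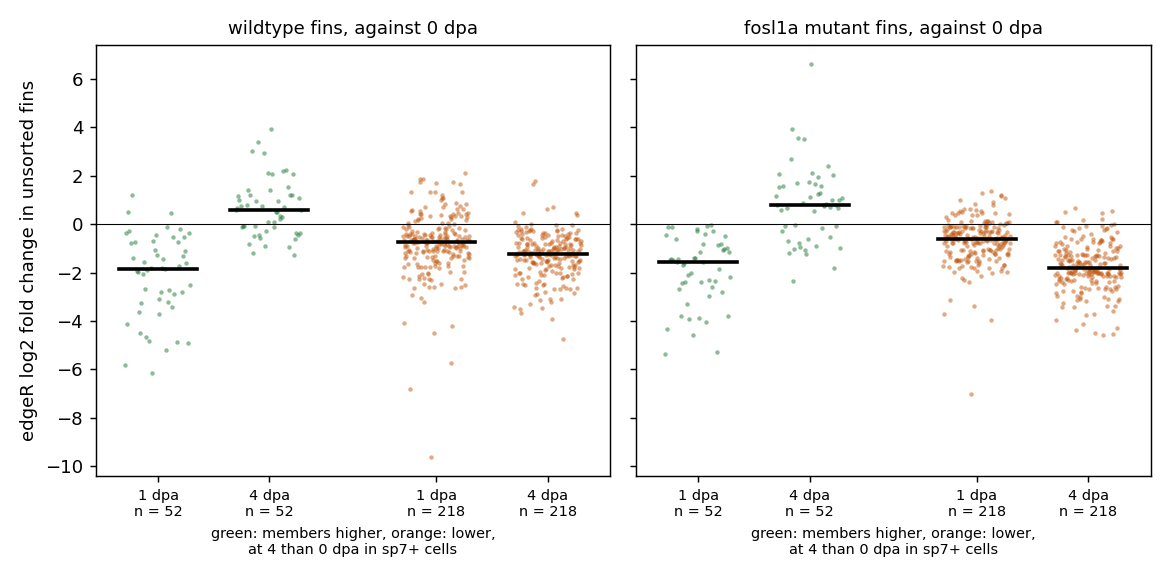
The y axis gives the edgeR log2 fold change of each member in unsorted fins at 1 and 4 dpa against 0 dpa, in WT (left) and KO fins (right); green points are the 52 tested members higher, orange points the 218 lower, in sp7+ cells at 4 than at 0 dpa, and black bars are medians. In WT fins the green medians are −1.84 and 0.59 and the orange medians −0.75 and −1.23 at 1 and 4 dpa.

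Most of the 12 bone members fell at 1 dpa and rose again by 4 dpa. In WT libraries sp7 was at 9.9 and 11.9 CPM at 0 dpa, 1.96 and 1.01 CPM at 1 dpa and 40.6 and 50.7 CPM at 4 dpa, and the 3 days did not overlap. It fell by 2.80 ± 0.42 (SE, log2, adjusted p = 0.00282, edgeR) to 1 dpa and ended 2.05 ± 0.37 above 0 dpa (adjusted p = 0.0203), the second call being lost without WT 0 dpa replicate 1 or WT 4 dpa replicate 2 (adjusted p of 0.0718 to 0.136). Of the 12 bone members, 8 fell (66.7%, against 8.95% of all genes) and 0 rose at 1 dpa (median −2.85). From 1 to 4 dpa, 9 rose (75%, against 5.84%), with a median of 4.11. At 4 dpa, 6 were above their 0 dpa level (50%, against 6.69%), namely ifitm5, sp7, panx3, col10a1a, entpd5a and phex. Another 2 were below it (16.7%, against 4.78%), bglap and bglapl. All 35 bone list genes gave 16 falls and 1 rise at 1 dpa and 13 levels above and 2 below at 4 dpa.

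The gene ifitm5 went from 36.8 and 44.4 CPM at 0 dpa to 2.12 and 1.27 at 1 dpa and 316 and 353 CPM at 4 dpa in WT libraries. The channel gene panx3 went from 11.8 and 5.87 to 0.196 and 0.45 and then 83.1 and 101 CPM. The collagen gene col10a1a went from 2662 and 2599 to 29.7 and 39.5 and then 22330 and 17370 CPM. In each of these genes the 3 days were fully separated, and their 4 dpa levels lay 3.03 ± 0.28, 3.39 ± 0.41 and 2.93 ± 0.57 (SE, log2) above 0 dpa in edgeR. The call of col10a1a between 4 and 0 dpa was lost without WT 0 dpa replicate 1 or 2 or WT 4 dpa replicate 1 (adjusted p of 0.0665 to 0.102), and that of phex without WT 0 dpa replicate 2 (0.0754).

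The osteocalcins did not return to their 0 dpa level by 4 dpa, though bglapl was called higher at 4 than at 1 dpa. Levels of bglapl in WT libraries were 74.7 and 158 CPM at 0 dpa, 0.229 and 0.0375 at 1 dpa and 11.7 and 9.83 CPM at 4 dpa, and those of bglap were 36.3 and 38.3, then 2.06 and 2.1, then 12.1 and 5.1 CPM. Both genes were lower at 4 dpa than at 0 dpa in every WT library, by −3.45 ± 0.63 and −2.10 ± 0.39 on the log2 scale (edgeR, adjusted p = 0.00823 and 0.0218). Both calls were lost without WT 0 dpa replicate 2 or WT 4 dpa replicate 2 (adjusted p of 0.0692 to 0.185). In the sorted sp7+ cells bglapl was also lower at 4 dpa, at 44.9 and 37.8 CPM against 172 and 754 CPM at 0 dpa. Of the other bone members, ihha fell at 1 dpa and rose by 4 dpa, scpp1 rose from 1 to 4 dpa, and spp1 and CDH11 had no call in WT fins. Both calls of ihha rested on single libraries, the fall being lost without WT 0 dpa replicate 2 or WT 1 dpa replicate 2 and the rise without 8 of the 12 libraries in turn (adjusted p of 0.056 to 0.293). The levels of spp1 were 90.8 and 164, 77.2 and 102, and 133 and 140 CPM on the 3 days, and 0 and 1 dpa overlapped.

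Matrix and tendon genes were grouped after their values were seen. Of 10 such members, of which col10a1a is also on the bone list, 9 fell at 1 dpa (median −4.70) and 9 rose from 1 to 4 dpa (median 5.44), col27a1a being the exception in both. Among all genes tested, 8.95% fell and 5.84% rose in these 2 comparisons. COL10A1 was at 3097 and 4349 CPM at 0 dpa, 50.6 and 73.8 at 1 dpa and 6456 and 4824 CPM at 4 dpa in WT libraries, and the collagen chain gene col11a2 was at 246 and 245, 12.6 and 13.9, and 611 and 468 CPM. At 1 dpa col11a2 fell by 4.13 ± 0.67 (SE, log2, edgeR), and a further collagen chain gene, col5a2b, also fell. The lysyl oxidase gene loxl4, the proteoglycan bgna, the sulfotransferase chst3b and the tendon genes tnmd (tenomodulin) and mkxa (the factor Mohawk) also fell, with tnmd at 32.8 and 30.7 CPM at 0 dpa, 1.47 and 1.05 at 1 dpa and 44.2 and 60.4 CPM at 4 dpa. Between 4 and 0 dpa, 2 of the 10 were called in WT fins, col10a1a and bgna, both higher, with bgna at 104 and 135 CPM against 28.5 and 23.6 CPM.

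A selection of 11 secreted signals and receptors among the members was grouped after their values were seen. It does not hold every such member, and the hedgehog ligand ihha is described with the bone members. Of these, 8 were called lower at 1 dpa in WT fins, against 8.95% of all genes tested. The largest fall after that of bglapl was in fgfbp2a (ENSDARG00000039964), whose product belongs to a family of secreted FGF-binding proteins. It was at 383 and 389 CPM at 0 dpa, 4.22 and 2.4 CPM at 1 dpa and 30 and 29.5 CPM at 4 dpa in WT libraries, with log2 fold changes of −6.79 ± 0.34 and −3.69 ± 0.29 (edgeR, adjusted p = 1.18e-06 and 4.47e-05). Its 2 uninjured libraries lay above all 4 regenerating ones. The BMP-binding protein gene bmper fell from 2.67 and 3.12 to 0.0327 and 0.15 CPM and reached 8.07 and 8.87 CPM at 4 dpa, the ligand BMP3 went from 36.8 and 32.5 to 2.65 and 1.46 and then a mean of 8.52 ± 2.33 CPM (SD, n = 2), and the ligand BMP2 had no call over time in WT fins. The ligand bmp8a was at 8.7 and 10.3, 2.48 and 2.59, and 15.4 and 16.9 CPM on the 3 days, and was not called at 1 dpa. The FGF receptor fgfr4, the secreted Wnt inhibitor notum1a, the matricellular wisp1b, the interleukin receptor il20ra and the guidance ligand sema3d fell at 1 dpa, and the RANK receptor gene tnfrsf11a had no call (log2 fold change −0.54 ± 0.15). Between 4 and 0 dpa, fgfbp2a, il20ra and BMP3 were called lower. Among all genes 4.78% were lower and 6.69% higher in that comparison. Of the 11, sema3d was the 1 called higher at 4 than at 0 dpa, at 13.8 and 19.3 CPM against 3.97 and 3.94 CPM, and the fall of notum1a was lost without WT 1 dpa replicate 2 (adjusted p = 0.0671).

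**Figure D3:**
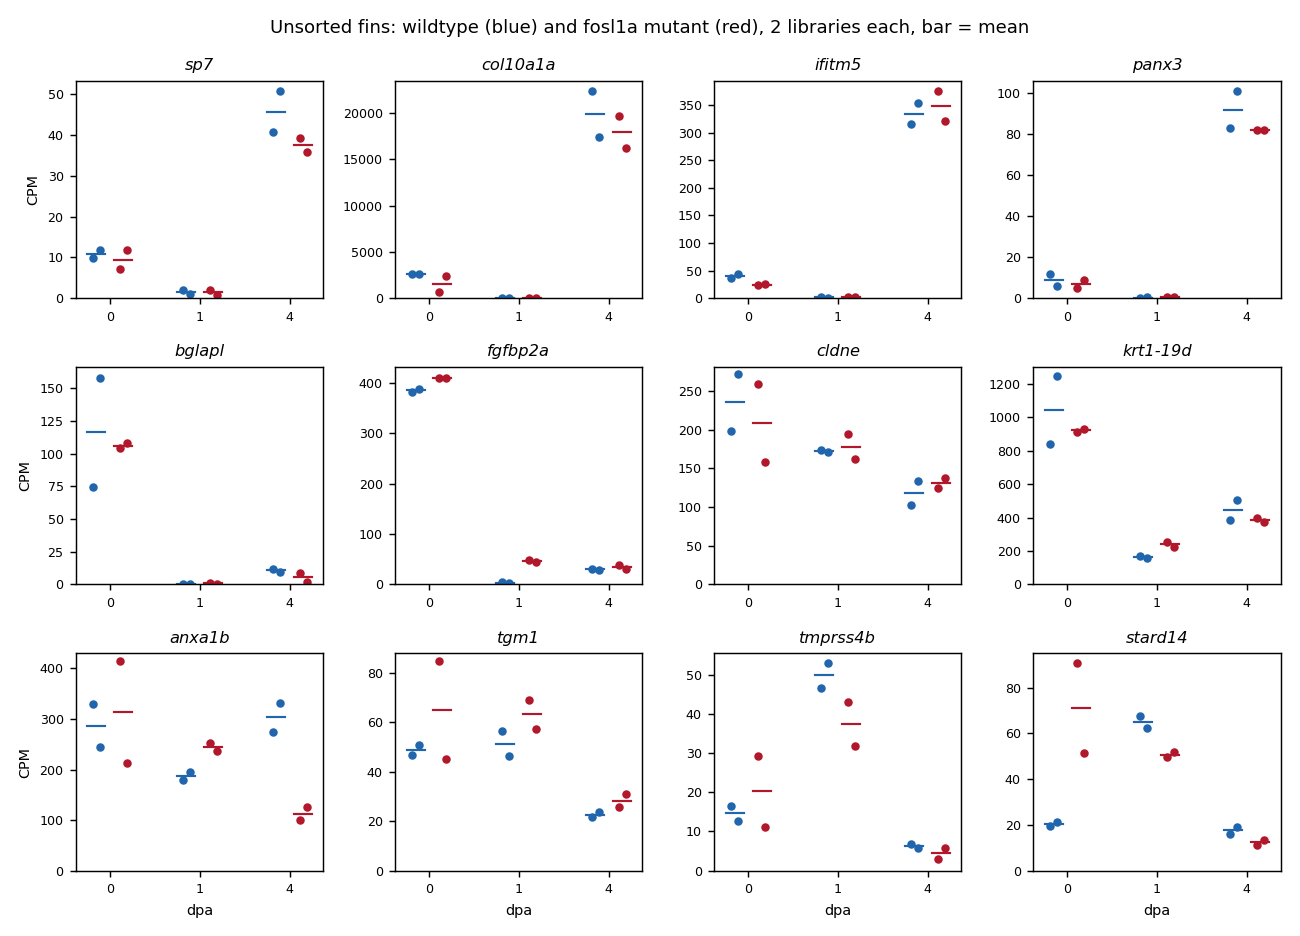
CPM (y axis, from 0) of 12 members in each unsorted library by day (x axis), with WT in blue, KO in red, a point for each of 2 libraries and a bar for their mean. Levels of sp7, col10a1a, ifitm5 and panx3 are lowest at 1 dpa and highest at 4 dpa, and those of bglapl and fgfbp2a stay far below 0 dpa. The gene stard14 is highest at 1 dpa in WT libraries. Its KO mean is highest at 0 dpa, where the libraries (90.9 and 51.6 CPM) overlap those of 1 dpa (49.5 and 51.9 CPM).

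Members on the superficial epidermis list had calls in both directions at 1 dpa. Of these 7 members, 1 fell in WT fins at 1 dpa, krt1-19d, and 1 rose, tmprss4b. Among all genes tested 8.95% fell and 6.32% rose. With 7 genes, a count of 1 in each direction cannot be told apart from these shares. Between 4 and 0 dpa 0 of the 7 were called against the 2-fold threshold, while 4.78% of all genes were lower and 6.69% higher. Their median change was −1.08, and 6 of the 7 changes were below 0. In that comparison 109 members of all kinds had an unadjusted p under 0.05 (edgeR). The keratin krt1-19d was at 839 and 1246 CPM at 0 dpa, 169 and 158 at 1 dpa and 384 and 503 CPM at 4 dpa, and fell by 2.61 ± 0.27 (SE, log2, edgeR, adjusted p = 0.00033) at 1 dpa. The protease tmprss4b rose from 16.5 and 12.7 to 46.7 and 52.9 CPM at 1 dpa and was at 6.77 and 5.9 CPM at 4 dpa. Its rise of 1.86 ± 0.31 (adjusted p = 0.0154) was lost without WT 0 dpa replicate 2 or WT 1 dpa replicate 2 (0.0941 to 0.105). The 25 genes of the whole list gave 5 rises (20%, against 6.32% of all genes) and 3 falls (12%, against 8.95%) at 1 dpa.

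Claudins, the strands of tight junctions, had no call at 1 dpa. Of 7 claudin members, 0 were called in WT fins, against 8.95% lower and 6.32% higher among all genes. With 7 genes a count of 0 is near these shares. All 7 log2 fold changes were below 0, at −0.81 to −0.23, with a median of −0.64 against −0.06 for all genes. At 4 dpa 1 was called lower (against 4.78% of all genes), cldnk, at −2.86 ± 0.24 (edgeR, adjusted p = 0.000107). Its levels were 10.3 and 13.6 CPM at 0 dpa, 7.35 and 5.59 at 1 dpa and 1.49 and 1.8 CPM at 4 dpa. The keratinocyte lipid transporter gene abca12 was at 60 and 47.7, 34.3 and 32, and 13.1 and 16.9 CPM on the 3 days, and was lower at 4 dpa than at 0 dpa by −1.85 ± 0.16 (adjusted p = 0.000862). The transglutaminase gene tgm1 was at 46.6 and 50.8, 56.3 and 46.4, and 21.7 and 23.7 CPM and was not called. These families were grouped after their values were seen.

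The 6 members that rose at 1 dpa in WT fins were elovl7b, tmprss4b, si:ch211-182p11.1, stard14, polr2m and rhcgl1. The fatty acid elongase gene elovl7b was at 12.4 and 14.9 CPM at 0 dpa, 44.8 and 64.5 at 1 dpa and 18.4 and 18.8 CPM at 4 dpa, and stard14, whose product carries a lipid-binding START domain, was at 19.6 and 21.2, 67.6 and 62.1, and 16.2 and 19.1 CPM. In both genes the 1 dpa libraries lay above all others of WT fins, and their rises of 2.09 ± 0.26 and 1.75 ± 0.17 (SE, log2, edgeR, adjusted p = 0.00184 and 0.00168) held without any 1 library. The calls of si:ch211-182p11.1 and polr2m were lost without 3 and 6 of the 12 libraries in turn, WT 0 dpa replicates 1 and 2 and WT 1 dpa replicate 1 for both genes and also WT 1 dpa replicate 2 and KO 4 dpa replicates 1 and 2 for polr2m (adjusted p of 0.0514 to 0.195), and that of rhcgl1 without WT 0 dpa replicate 2 or WT 1 dpa replicate 1 (0.0633 to 0.0759).

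The 4 genes of clone si:ch211-188p14 fell at 1 dpa and were lower at 4 than at 0 dpa in WT fins, with log2 fold changes of −3.92 to −3.28 at 4 dpa. Levels of si:ch211-188p14.4 were 173 and 267 CPM at 0 dpa, 52.5 and 40.3 at 1 dpa and 22.1 and 19.5 CPM at 4 dpa. The falls of 3 of the 4 at 1 dpa, all but that of si:ch211-188p14.5, were lost without WT 0 dpa replicate 2 or WT 1 dpa replicate 2 (adjusted p of 0.0691 to 0.105), and that of si:ch211-188p14.4 also without WT 1 dpa replicate 1 (0.0543). The largest rise at 4 dpa was that of si:ch211-106n13.3, from 14.9 and 3.16 to 140 and 122 CPM, a log2 fold change of 3.91 ± 0.52 (edgeR, adjusted p = 0.00102).

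For some members the level in intact tissue lay outside the range of the sorted libraries. At 0 dpa both WT libraries lay below all 4 sorted libraries for 24 members (8.28%, against 16.8% of the 6735 genes) and above all 4 for 41 (14.1%, against 45.6%), and at 4 dpa the counts were 25 (8.62%, against 30.9%) and 44 (15.2%, against 35.2%). Members were chosen for a wide gap between sp7+ and sp7− cells, which leaves less room outside the sorted range. The smaller shares of members therefore follow in part from the choice and are no result about them. The elongase gene elovl7b was at 3593 and 3262 CPM in sp7+ and 706 and 945 CPM in sp7− cells but at 12.4 and 14.9 CPM in uninjured WT fins. Conversely, fgfbp2a was at 105 and 108 CPM in sp7+ and 1.12 and 1.37 CPM in sp7− cells and at 383 and 389 CPM in WT fins, and anxa1b was at 102 and 63.1, 17 and 17.6, and 329 and 245 CPM. Sorted and unsorted libraries came from different lines and preparations, which cannot be told apart here.

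**Figure D4:**
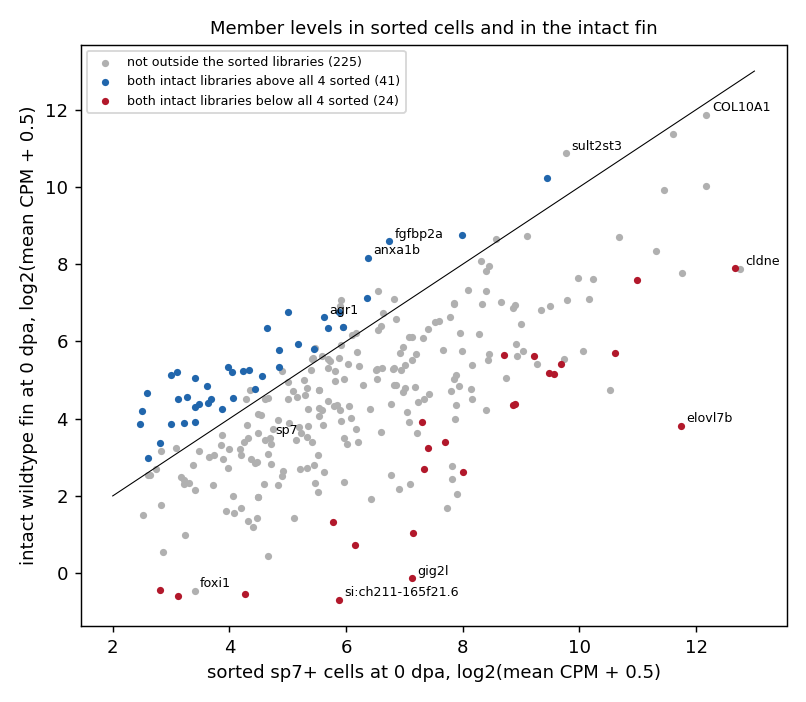
Each point is a member, placed by log2(mean CPM + 0.5) in sp7+ cells (x axis) and in uninjured WT fins (y axis) at 0 dpa, with equal levels on the line. Blue points (41) lie above and red points (24) below all 4 sorted libraries in both WT libraries; elovl7b and gig2l are among the red and fgfbp2a and anxa1b among the blue.

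In KO fins, 53 of 286 members (18.5%) were lower and 0 higher at 1 dpa than at 0 dpa, against 5.24% and 4.78% of all genes (median −0.74, with 86 members at an unadjusted p under 0.05), and 46 members (16.1%, against 4.36% of all genes) were called lower at 1 dpa in both genotypes. Of the 12 bone members 7 fell at 1 dpa (58.3%). At 4 dpa, 118 members (41.3%) were lower and 12 (4.2%) higher than at 0 dpa in KO fins, against 8.06% and 6.93% of all genes, with a median of −1.49. All 12 that were higher belonged to the 52 members that rose in sp7+ cells, and 111 of the 118 to the 218 that fell there. In KO libraries sp7 was at 7.26 and 11.7, 2.05 and 0.879, and 39.2 and 35.7 CPM on the 3 days, and its difference between genotypes at 4 dpa was −0.17 ± 0.35 (log2, edgeR, adjusted p = 0.74). Its calls in KO fins were lost without KO 1 dpa replicate 2 at 1 dpa (0.0671) and without KO 0 dpa or KO 4 dpa replicate 1 at 4 dpa (0.0721 to 0.101).

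Uninjured fins of both genotypes differed in few members. At 0 dpa, 9 members (3.15%) were higher and 0 lower in KO than in WT fins, against 0.308% and 0.0446% of all genes, with 61 members at an unadjusted p under 0.05. All 9 were among the 218 members that fell in sp7+ cells (4.13% of the 218). Fitting the 2 groups alone gave 0 calls and DESeq2 gave 17 higher and 1 lower. Leaving out WT 0 dpa replicate 1 left 4 calls, and leaving out KO 0 dpa replicate 1 or 2 gave 15 or 45.

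The members that kept this call without any 1 library were cyld2, si:dkeyp-86h10.3 and stard14. Levels of si:dkeyp-86h10.3 at 0 dpa were 16.5 and 23.3 CPM in WT and 111 and 89.9 CPM in KO libraries, a log2 difference of 2.28 ± 0.22 (edgeR, adjusted p = 0.0011). The gene cyld2 was at 15.4 and 15.3 against 77.5 and 39.7 CPM (1.83 ± 0.18, adjusted p = 0.00129), and stard14 at 19.6 and 21.2 against 90.9 and 51.6 CPM (1.71 ± 0.17, adjusted p = 0.00132). In each of the 3 genes both KO libraries lay above both WT libraries. The fatty acid elongase gene elovl6l was at 30.6 and 33.3 in WT and 135 and 78.5 CPM in KO libraries (1.65 ± 0.19), and its call was lost without WT 0 dpa replicate 1 (adjusted p = 0.0693), as were those of stx11b.1 and bicdl2l (0.102 and 0.0647).

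At 1 dpa, 11 members (3.85%) were higher and 1 (0.35%) lower in KO than in WT fins, against 0.724% and 0.506% of all genes. The count of 12 fell to 3 without WT 1 dpa replicate 1, KO 1 dpa replicate 1 or KO 1 dpa replicate 2 and to 1 without WT 1 dpa replicate 2, and rose to 38 or 39 without KO 0 dpa replicate 1 or 2. The call that held throughout was fgfbp2a, at 4.22 and 2.4 CPM in WT and 48.3 and 44.9 CPM in KO libraries. Its difference of 3.72 ± 0.30 (log2, edgeR, adjusted p = 0.00125) contrasts with 0.07 ± 0.26 at 0 dpa, where it was at 383 and 389 and at 411 and 411 CPM. Thus fgfbp2a fell in both genotypes, by 6.79 in WT and by 3.15 in KO fins on the log2 scale, and the difference between these falls was 3.65 ± 0.38 (adjusted p = 0.00169). The NADPH oxidase organizer noxo1a was at 3.01 and 2.21 CPM in WT and 11.8 and 13.7 CPM in KO libraries at 1 dpa (2.19 ± 0.23, adjusted p = 0.00198), a call lost without WT 1 dpa replicate 2 (0.0714).

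The change from 0 to 1 dpa differed between genotypes for 10 members, 3 with a higher and 7 with a lower change in KO fins (1.05% and 2.45%, against 0.129% and 0.377% of all genes). The genotype comparison at 0 dpa uses the same uninjured libraries, and there all 7 were called higher in KO fins. Their lower change is therefore not separate from that difference. At 1 dpa cyld2 was at 26.0 and 20.9 CPM in WT and 25.6 and 20.2 CPM in KO libraries. Of the 7, bicdl2l was called lower in KO fins at 1 dpa. The 5 that kept this call without any 1 library were fgfbp2a, cyld2, si:dkeyp-86h10.3, stard14 and bicdl2l. The gene stard14 rose in WT fins from 19.6 and 21.2 to 67.6 and 62.1 CPM, while in KO fins it was at 90.9 and 51.6 CPM before and 49.5 and 51.9 CPM after amputation. The coiled-coil gene bicdl2l went from 38.5 and 45.9 to 82.5 and 61.6 CPM in WT and from 146 and 123 to 37.8 and 30.2 CPM in KO fins. In bicdl2l the order of the genotypes was reversed between 0 and 1 dpa. The count of 10 was 6 without WT 0 dpa replicate 1, WT 1 dpa replicate 1 or KO 1 dpa replicate 2, 5 without WT 1 dpa replicate 2, and 25 and 16 without KO 0 dpa replicates 1 and 2.

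At 4 dpa, 69 members (24.1%) were lower and 29 (10.1%) higher in KO than in WT fins, against 16.8% and 12.7% of all genes. The median difference was −0.19 for members and −0.08 for all genes. This count rested on single libraries, since the 98 calls became 2 without KO 4 dpa replicate 1, 25 without WT 4 dpa replicate 2, 40 without WT 4 dpa replicate 1 and 72 without KO 4 dpa replicate 2. With all libraries 119 members had an unadjusted p under 0.05 (edgeR). Without KO 4 dpa replicate 1, 262 of 286 members kept the sign of their difference. This is no independent support, since the other libraries compared are the same. The 2 members called in every such fit were ENSDARG00000100739, which was higher in KO fins, and apodb, which was lower. ENSDARG00000100739 was at 5.76 and 4.89 CPM in WT and 19.7 and 20 CPM in KO libraries at 4 dpa (edgeR, adjusted p = 0.00285), with no overlap.

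**Figure D5:**
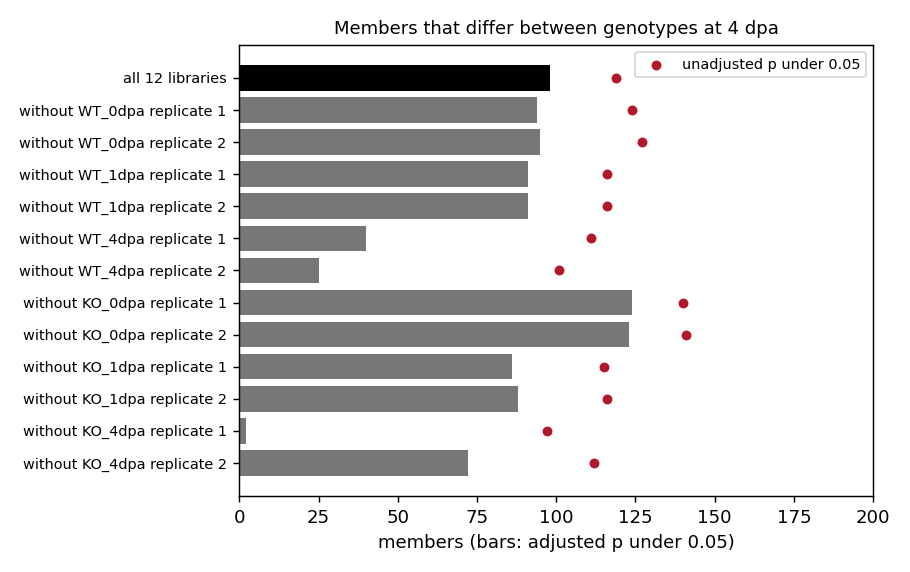
Horizontal bars give the number of members called between KO and WT at 4 dpa (x axis) with all 12 libraries and without each in turn, and red points the number at an unadjusted p under 0.05. The bars range from 2 to 124 and the points from 97 to 141.

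Of the 98 members called at 4 dpa, 85 belonged to the 218 of 286 tested that fell in sp7+ cells. Of the 218, 61 (28%) were lower and 24 (11%) higher in KO fins, against 16.8% and 12.7% of all genes. The 52 that rose gave 4 (7.69%) in each direction. Epidermal members were among those lower in KO fins. Levels of anxa1b at 4 dpa were 274 and 332 CPM in WT and 99.3 and 125 CPM in KO libraries (−1.34 ± 0.20, log2, edgeR, adjusted p = 0.0033), and those of agr1 were 63.3 and 66.9 against 19.8 and 33.2 CPM (−1.21 ± 0.23, adjusted p = 0.00513). In both genes the 2 KO libraries lay below the 2 WT libraries, and both calls were lost without KO 4 dpa replicate 1 (0.0515 and 0.0639). In total 3 of the 7 superficial epidermis members were lower (42.9%), the third being cldnf, whose call was lost without 8 of the 12 libraries in turn. On the whole list, 7 of 25 genes were lower (28%) and 1 higher (4%). A total of 48 members (16.8%, against 1.97% of all genes) were below both the KO level at 0 dpa and the WT level at 4 dpa. Both calls use the same KO 4 dpa libraries and are not independent. The genotype calls at 4 dpa also rested on single libraries, as described above.

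Bone members at 4 dpa differed by gene. Of the 12, entpd5a, bglap and scpp1 were lower in KO fins (25%, against 16.8% of all genes) and 0 were higher. On the whole bone list 5 of 35 genes were lower and 1 higher. The mineralization gene entpd5a was at 115 and 155 CPM in WT and 58.7 and 66.1 CPM in KO libraries (−1.01 ± 0.16, log2, edgeR, adjusted p = 0.00331), a call lost without KO 4 dpa replicate 1 (0.0515). The calls of bglap and scpp1 were lost without KO 4 dpa replicate 1 or 2 or WT 4 dpa replicate 1, and that of scpp1 also without WT 4 dpa replicate 2. By contrast ifitm5 was at 316 and 353 against 375 and 321 CPM, panx3 at 83.1 and 101 against 82.2 and 82.1 CPM, and col10a1a at 22330 and 17370 against 19696 and 16255 CPM, with differences of 0.17 ± 0.26, −0.06 ± 0.37 and −0.04 and adjusted p of 0.658, 0.922 and 0.959. The proteoglycan bgna was at 104 and 135 CPM in WT and at 48.7 CPM in both KO libraries (−1.19 ± 0.18, adjusted p = 0.0033), also lost without KO 4 dpa replicate 1 (0.0514).

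The change from 0 to 4 dpa differed between genotypes for 95 members, with 72 lower (25.2%) and 23 higher (8.04%) in KO fins, against 10.1% and 8.32% of all genes. This comparison shares its 4 dpa libraries with the genotype comparison at 4 dpa and its 0 dpa libraries with that at 0 dpa. The 6 members that kept the call without any 1 library were all lower, namely si:dkeyp-86h10.3, si:ch211-195b13.1, elovl6l, stard14, stx11b.1 and apodb. All of these but apodb were called higher in KO than in WT fins at 0 dpa, so their lower change is not separate from that difference. The elongase gene elovl6l fell in KO fins from 135 and 78.5 to 6.58 and 7.74 CPM and in WT fins went from 30.6 and 33.3 to 17.1 and 16.6 CPM, so that the genotypes changed order, with a difference in change of −2.78 ± 0.27 (log2, edgeR, adjusted p = 0.00183). The count of 95 was 7 without KO 4 dpa replicate 1, 9 and 30 without WT 4 dpa replicates 2 and 1, 20 without WT 0 dpa replicate 2 and 154 without KO 0 dpa replicate 2.

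Some members lay beside each other in the genome. In the RefSeq gene order of assembly GRCz12tu, used for neighbours only, 246 members were placed and 24 (9.76%) had another member as direct neighbour, against 1.98% of 5701 other genes at 5 CPM or more in sp7+ cells. The 12 pairs included cldne and cldnf, ifi27.1 and ifi27.3, rarres3 and rarres3l, mhc2dga and mhc2dgb, and notum1a and MYADML2. Read pairs that overlapped several genes were counted for each, so the overlapping genes rbp7a and nmnat1-rbp7a could share reads, which was not measured, and cyp8b2 and CU694226.2 had near-identical counts (r of 1.0 across libraries), which makes their separate levels uncertain. Whether shared counting has a part in the number of neighbouring members was not tested.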

How the data were processed

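RNA-seq was analysed from 20 libraries, 2 for each of 10 groups. The authors deposited counts of read pairs per Ensembl gene in 2 tables, for sorted and for unsorted libraries, made with STAR 2.5.2a on GRCz10 and featureCounts 1.5.0 from unstranded libraries of polyadenylated RNA, with pairs over several genes counted for each. Levels are CPM by column totals. Unsorted counts were fitted with edgeR 4.0.16 (TMM scaling, filterByExpr, quasi-likelihood, all 12 libraries, no replicate block), using glmTreat at 2-fold over time and glmQLFTest for genotype and for the difference in change, with Benjamini-Hochberg adjustment over 20157 genes at 0.05. SE is the log2 fold change divided by the root of the F statistic. The fits were tested on simulated data. DESeq2 1.42.0 and the alternatives of the closing section were run in R 4.3.3. TMM factors of unsorted libraries ranged from 0.8755 to 1.245.

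The members and the gene lists were chosen with earlier results of these data known. Genes named were the 10 with the largest smaller sorted difference, members on marker lists, the 3 on each side of the threshold (1 of them is not reported here), and the 5 largest changes in each direction per WT contrast and per genotype contrast or difference in change, or every called member where those were 10 or fewer; families and other genes were added after their values were seen. Of 157 marker symbols, 135 were found. Symbols came from the files' identifiers through reference tables. A promoter motif search was not run, and no sequences are printed.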

Additional observations from a re-analysis of the deposited data

Results flagged for a closer look

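The course of 10 members from 0 to 1 dpa and of 95 members from 0 to 4 dpa differed between KO and WT fins by the test of the difference in change (edgeR, 2 libraries a group). To 1 dpa 1.05% of members had a higher and 2.45% a lower change in KO fins, against 0.129% and 0.377% of all genes. To 4 dpa the shares were 8.04% and 25.2%, against 8.32% and 10.1%, and this count rested on single libraries. All members below with a lower change to 1 dpa were called higher in KO fins at 0 dpa. From 0 to 1 dpa the difference in log2 change, KO minus WT, was 3.65 for fgfbp2a, 2.18 for noxo1a and 1.46 for wisp1b. It was −2.81 for bicdl2l, −2.30 for si:dkeyp-86h10.3, −2.17 for stard14, −1.97 for cyld2, −1.79 for si:dkey-162h11.2, −1.76 for elovl6l and −1.32 for stx11b.1.

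Of these 10, the calls of noxo1a, elovl6l, si:dkey-162h11.2, stx11b.1 and wisp1b were lost without at least 1 library, the last without 10 of the 12. The matricellular gene wisp1b was at 21.5 and 22.8 CPM at 0 dpa and 6.37 and 5.25 CPM at 1 dpa in WT, and at 26.7 and 25.3 and then 21.3 and 18.5 CPM in KO libraries.

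From 0 to 4 dpa the difference was 2.71 for zgc:194282, 2.69 for si:ch211-106n13.3, 2.44 for ENSDARG00000100739, 2.03 for ENSDARG00000087748 and 1.80 for hip1ra. It was −3.46 for si:dkeyp-86h10.3, −2.84 for si:ch211-195b13.1, −2.78 for elovl6l, −2.29 for ENSDARG00000101956 and −2.12 for stard14. Among these 10 genes, the 5 higher ones and ENSDARG00000101956 lost the call without at least 1 library, and the calls of the other 4 held in each of the 12 fits.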

How the results depend on the processing

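Of the 1305 alternatives for 75 calls of single named members, 1124 kept the call, 181 lost it and 0 reversed it. The alternatives counted include fits without a library outside the groups compared and, over time, a laxer 2-fold criterion. The share kept therefore depends on which settings were counted. With the 2-fold criterion applied after a test against no change, members called numbered 135 (WT 1 against 0 dpa), 151 (WT 4 against 0), 103 (WT 4 against 1), 116 (KO 1 against 0) and 196 (KO 4 against 0), against 80, 68, 55, 53 and 130. With a difference threshold of 3 in place of 2 (141 members), the counts were 46 (WT 1 against 0 dpa), 43 (WT 4 against 0), 30 (WT 4 against 1) and 77 (KO 4 against 0), with medians of −1.24 (WT 4 against 0) and −1.93 (KO 4 against 0), and 47 (KO against WT at 4 dpa) and 44 (difference in change to 4 dpa), the set being smaller. Fitting only the groups compared gave 34 (KO 1 against 0 dpa), 0 and 24 (KO against WT at 0 and 1 dpa), and 4 and 23 (differences in change to 1 and 4 dpa). Without a filter on low counts, KO against WT gave 14 and 23 at 0 and 1 dpa and the difference in change to 1 dpa gave 16, and DESeq2 gave 18, 24 and 16. The causes were not tested, beyond the smaller number of members or libraries. Apart from leaving out libraries, all other alternatives to the count of members called stayed within 1.5 times.

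Leaving out 1 library at a time, members called ranged from 42 to 85 (WT 4 against 0 dpa; median −1.10 to −0.91), 4 to 45, 1 to 39 and 2 to 124 (KO against WT at 0, 1 and 4 dpa), and 5 to 25 and 7 to 154 (differences in change to 1 and 4 dpa). A replicate left alone was assumed to vary like the other groups.

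With the replicate block the counts of calls were 83, 67 and 54 (WT 1 against 0, 4 against 0 and 4 against 1 dpa), 53 and 132 (KO 1 and 4 against 0), 8, 12 and 102 (KO against WT at 0, 1 and 4 dpa) and 9 and 93 (differences in change to 1 and 4 dpa). Same-numbered libraries deviated together at r of −0.152 to 0.27 over 15 pairs of groups, and no label ties the numbers, so the block was not used.

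With 2 libraries a group, differences within the spread of replicates were not detectable, and levels under 1 CPM rest on few counts.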

Other observations

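The 2 uninjured KO libraries differed from each other across members, and most in a small set. The median absolute difference between them was 0.68 in log2(CPM + 0.5), against 0.2 to 0.45 in the other groups. Replicate 1 was higher by a median of 0.57. These CPM do not use the TMM factors, which were 1.245 for replicate 1 and 0.8755 for replicate 2. Large gaps between replicates were counted among members only. At 0 dpa, 8 members were at least 8-fold apart between the KO replicates in log2(CPM + 0.5), all higher in replicate 1, and 0 members were so far apart in the replicates of WT fins at any day or in any sorted group. They were the sulfotransferase sult2st3, the sulfate-donor synthase papss2a, entpd8, cyp8b2, CU694226.2, CABZ01111729.1 and the MHC class II genes mhc2dga and mhc2dgb, of which the last 2 were also apart at 1 dpa in KO libraries. Levels of sult2st3 at 0 dpa were 2335 and 7.1 CPM in KO and 2586 and 1158 CPM in WT libraries, and those of papss2a were 500 and 13.8 and 371 and 169 CPM. In the 2 sp7+ libraries of 0 dpa sult2st3 was at 1524 and 222 CPM and papss2a at 455 and 177 CPM.

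The NADPH oxidase gene nox1 and its organizer noxo1a, both members, parted in KO fins. At 4 dpa nox1 was at 13.4 and 17.1 CPM in WT and 7.53 and 9.05 CPM in KO libraries (−0.78 ± 0.17, log2, edgeR, adjusted p = 0.0085), and noxo1a was at 8.55 and 8.66 against 19.9 and 17.2 CPM (1.22 ± 0.22, adjusted p = 0.00444). Both calls were lost without KO 4 dpa replicate 1, and that of nox1 also without WT 4 dpa replicate 2.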
